A study of Mus musculus with 4 samples.

Results

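Neurons fill their axons with a dedicated cytoskeleton. Neurofilaments are intermediate filaments built from light, medium and heavy subunits (Nefl, Nefm and Nefh), which co-assemble with peripherin (Prph) and alpha-internexin (Ina) and support the calibre of the axon. Microtubules of neurons contain the beta-tubulin Tubb3, are stabilised by the microtubule-associated protein Map1b and are kept dynamic in growing axons by the stathmin Stmn2. Gap43 is a membrane-bound phosphoprotein of growth cones, and Uchl1 (PGP9.5) is an abundant deubiquitinating enzyme of neurons that is widely used to stain peripheral nerve fibres. These 10 genes were chosen by name, as neuronal intermediate filaments and as tubulin, microtubule, growth cone and axonal proteins. All 10 were found among the 23282 gene rows of the count tables, each on 1 row.

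RNA came from explant cultures of dorsal root ganglia, which hold the cell bodies of sensory neurons with their glia beside the spinal cord, taken from C57BL/6 mouse embryos at embryonic day 13. Every culture was switched from growth to myelination medium at day in vitro (DIV) 8. The 4 libraries were a control without stimulation and stimulated cultures, each harvested at 11 DIV and at 19 DIV. Stimulated cultures of either harvest day were given electrical stimulation (ES; 20 Hz, 50 mV/mm, 1 h) at 10 DIV. Each library held the pooled RNA of 3 explants, and each group had 1 library, so no difference has a replicate check. Explants also hold Schwann cells, satellite glia and fibroblasts, so levels are those of a cell mixture.

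Totals ran from 5782834 reads to 7830950 reads, and 9632 to 9996 rows had a read. The stimulated library at 19 DIV had the largest total and the fewest rows with a read. Rn45s, the ribosomal RNA precursor, took 2.65% to 5.18% of reads. Levels are given as CPM, read counts brought to a common library size with TMM, the trimmed mean of ratios between libraries. Counts scattered far more than counting error: 2602 rows had 0 reads in 1 library and more than 200 in another. For genes with a mean of 500 to 3000 reads, the squared difference between 2 libraries was 209 to 260 times that of counting error, a ratio called here the spread factor. Each ratio below is therefore given with a 95% spread-adjusted interval, an exact binomial interval on counts divided by that factor. A gene is said to pass the rule when it differed at least 2-fold, had at least 50 reads in the higher library and had an interval that excluded equality. Such intervals compare 2 libraries, not 2 conditions.

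Of the 10 genes, 5 had an entry in the RefSeq promoter table used (build GRCm38.p6): Ina, Map1b, Prph, Tubb3 and Uchl1. Shown here are the 250 bases before the start site in RefSeq for Prph and Map1b, which passed the rule between stimulated and control cultures at 19 DIV, and for Uchl1, which did not pass it. Capitals mark matches, on either strand, to TATAAA (the TATA box) or GGGCGG (the GC box), and CCAAT (the CCAAT box) was searched as well.
Prph, chr15:99054924-99055173, plus strand: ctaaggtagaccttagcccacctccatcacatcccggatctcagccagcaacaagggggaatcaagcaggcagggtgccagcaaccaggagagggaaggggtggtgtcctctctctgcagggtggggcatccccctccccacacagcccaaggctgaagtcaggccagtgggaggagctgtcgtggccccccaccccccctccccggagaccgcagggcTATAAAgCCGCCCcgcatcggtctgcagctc
Map1b, chr13:99516603-99516852, minus strand: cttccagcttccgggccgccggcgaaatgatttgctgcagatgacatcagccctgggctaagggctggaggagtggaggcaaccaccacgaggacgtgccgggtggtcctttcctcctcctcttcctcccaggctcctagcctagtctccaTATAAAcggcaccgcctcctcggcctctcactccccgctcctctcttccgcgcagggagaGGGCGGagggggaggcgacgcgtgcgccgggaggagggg
Uchl1, chr5:66675871-66676120, plus strand: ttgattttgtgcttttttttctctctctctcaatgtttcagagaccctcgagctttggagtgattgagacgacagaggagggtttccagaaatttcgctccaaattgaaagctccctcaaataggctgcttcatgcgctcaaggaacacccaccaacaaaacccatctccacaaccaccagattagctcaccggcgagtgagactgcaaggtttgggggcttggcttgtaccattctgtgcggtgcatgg
The Prph promoter had TATAAA at 31 to 26 bases before the start and the GC box, on the opposite strand, at 24 to 19 bases. In Map1b TATAAA lay 99 to 94 bases and GGGCGG 39 to 34 bases before the RefSeq start. The Tubb3 window, not printed, held GGGCGG at 138 to 133 and at 46 to 41 bases before its RefSeq start, and the CCAAT box on the opposite strand at 77 to 73 bases. GENCODE M21 starts Tubb3 earlier, at 123411424, so the CCAAT match and the nearer GC box lie inside its transcript there. The end of the Uchl1 window likewise lies inside the GENCODE gene, which starts at 66676091, and RefSeq also has a longer Prph gene that starts at 99053579, before the window shown. None of these matches overlapped another. Uchl1 had none of the 3 motifs in this window. Among 32851 promoter windows of the same length, 12.4% held TATAAA, 33.8% CCAAT and 32.7% GGGCGG. Neither the cAMP response element TGACGTCA (1.55% of windows) nor the AP-1 motif TGANTCA (6.75%) occurred in any of the 5 promoters. The E-box CAGCTG (13% of windows) occurred in Ina alone of the 5. TATAAA occurred in 2 of them, Prph and Map1b, and not in Tubb3, which also passed the rule at 19 DIV. GGGCGG occurred in 4, among them Ina, which did not pass it. The GC content was 65.2% in Prph, 68% in Tubb3, 66.4% in Map1b, 70.8% in Ina and 48.8% in Uchl1, against a median of 52.4% over all windows. These matches are letters in a window and not sites of binding.

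The stimulated library at 19 DIV had the lowest level of 9 of the 10 genes, and 5 of them passed the rule against the control library of the same day. Those were Prph, Nefl, Tubb3, Stmn2 and Map1b, at 0.186 to 0.467 times control. Of all 1357 genes averaging at least 1000 reads, 2.51% passed as lower there and 2.36% as higher. Among the 9 genes lowest in that library, Map1b alone had an interval that excluded equality with the next higher library. At 11 DIV, 1 day after stimulation, none of the 10 passed the rule in either direction. Among the same 1357 genes 1.92% passed as higher and 3.1% as lower on that day. In mixed tissue, fewer neurons and less of these RNAs per neuron cannot be told apart.

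**Figure D1:**
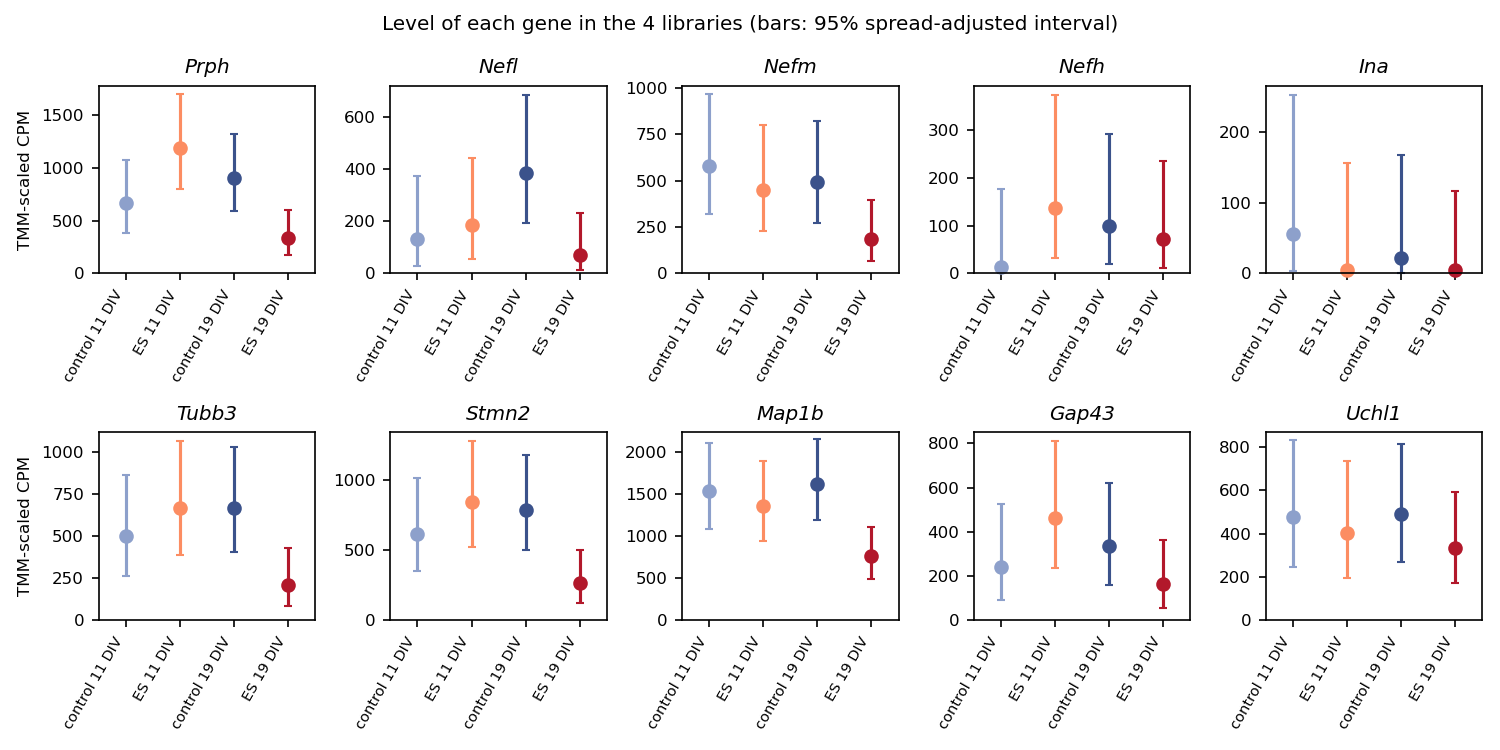
TMM-scaled CPM (vertical axes, each from 0) of the 10 genes in the control and stimulated (ES) libraries at 11 and 19 DIV, 1 library per point, with 95% spread-adjusted intervals as bars. The stimulated library at 19 DIV is the lowest point for every gene except Nefh, which is lowest in the control at 11 DIV.

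Peripherin, the filament protein typical of peripheral neurons, is encoded by Prph (ENSMUSG00000023484.14, protein-coding, GRCm38 chromosome 15, 99055174 to 99058978, plus strand). Its level was 667 CPM in control at 11 DIV, 1192 CPM in ES at 11 DIV, 906 CPM in control at 19 DIV and 340.2 CPM in ES at 19 DIV. The stimulated library was thus the highest of the 4 at 11 DIV and the lowest at 19 DIV. The ES to control ratio was 1.79 at 11 DIV (0.985 to 3.34), an interval that just reached equality, and 0.376 at 19 DIV (0.171 to 0.777), past the rule. Between adjacent levels in the order of the 4 libraries, no step excluded equality for Prph.

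Nefl, the light subunit on which neurofilament assembly depends (ENSMUSG00000022055.7, chromosome 14, 68083863 to 68089095, plus strand), had 767 reads in the 11 DIV control, 1093 in ES at 11 DIV, 2656 in the 19 DIV control and 572 in ES at 19 DIV. These counts correspond to 132, 185, 385 and 71.6 CPM in the same order. The control library at 19 DIV stood above the other 3. The ratio of ES to control was 0.186 at 19 DIV (0.0262 to 0.771), the lowest of the 5 genes past the rule, and 1.39 at 11 DIV (0.299 to 7.41). With a 99% interval Nefl no longer passed the rule at 19 DIV, whereas Prph, Tubb3, Stmn2 and Map1b still did.

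The medium subunit gene Nefm (ENSMUSG00000022054.11, chromosome 14, 68082590 to 68124846, minus strand) stood at 578 CPM in the 11 DIV control against 451 CPM with ES, and at 492 CPM in the 19 DIV control against 184 CPM with ES. Both controls and the stimulated library at 11 DIV lay close together, with ES at 19 DIV below them. At 19 DIV the ratio was 0.374 (0.121 to 1.02), near that of Prph, but the interval reached equality and Nefm did not pass the rule. In GENCODE M21 the Nefm gene extends over Nefl on the opposite strand, while RefSeq places Nefm at 68119545 to 68125004, clear of Nefl. Which annotation was counted, and whether strand was used, is not given in the sources used here. Reads shared by Nefl and Nefm could not be told apart.

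Nefh, the heavy subunit that accumulates as axons mature (ENSMUSG00000020396.8, chromosome 11, 4938754 to 4948064, minus strand), and Ina, a filament protein of developing neurons (ENSMUSG00000034336.3, chromosome 19, 47014698 to 47025327, plus strand), were the least counted of the 10. Nefh had 79 reads in the 11 DIV control against 809 with ES, and 677 in the 19 DIV control against 583 with ES. Only the control at 11 DIV stood apart, at 13.6 CPM against 73.0 to 137 CPM in the other 3. Ina had 327 and 30 reads at 11 DIV and 147 and 34 at 19 DIV, control first, so both stimulated libraries were below both controls. Counting error alone put Nefh 10.0-fold higher (7.94 to 12.8) and Ina at 0.0897 times control (0.0596 to 0.131) in ES at 11 DIV. The spread-adjusted intervals of both genes included equality, with a lower end of 0.488 for Nefh and an upper end of 10.5 for Ina. Neither difference thus exceeded the scatter between libraries at these read counts. The Ina gene overlaps Nt5c2 on the opposite strand, which had 0 to 440 reads.

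Tubb3, the tubulin isotype used as a marker of neurons (ENSMUSG00000062380.4, chromosome 8, 123411424 to 123422015, plus strand), measured 497 CPM in the 11 DIV control and 665 CPM with ES, then 664 CPM in the 19 DIV control and 209.6 CPM with ES. The stimulated library at 11 DIV and the control at 19 DIV were nearly level, and ES at 19 DIV lay below all others. At 19 DIV the ES to control ratio was 0.316 (0.113 to 0.779), past the rule, and at 11 DIV it was 1.34 (0.633 to 2.89).

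Stmn2, a stathmin carried into growing axons (ENSMUSG00000027500.10, chromosome 3, 8509360 to 8561606, plus strand), had the same order of libraries as Tubb3 and Prph. Its 4 levels were 616 CPM (control, 11 DIV), 841 CPM (ES, 11 DIV), 789 CPM (control, 19 DIV) and 262 CPM (ES, 19 DIV). Stimulated cultures at 19 DIV had 0.332 times the level of their control (0.134 to 0.748), which passed the rule. At 11 DIV they had 1.37 times that level (0.703 to 2.71).

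Map1b, the microtubule-associated protein of growing axons (ENSMUSG00000052727.6, chromosome 13, 99421446 to 99516540, minus strand), was counted most deeply of the 10, with 6031 to 11153 reads. It stood at 1530.3 CPM in the younger control and 1353 CPM in its stimulated partner, and at 1618 CPM in the older control and 755 CPM in its stimulated partner. The first 3 libraries were within a narrow range, and ES at 19 DIV was below each of them. Its ratio at 19 DIV was 0.467 (0.277 to 0.771), past the rule and with the narrowest interval of the 5 genes. At 11 DIV the ratio was 0.884 (0.556 to 1.40). Of the 30 steps between adjacent levels over the 10 genes, only 1 excluded equality. It was the step of Map1b from ES at 19 DIV up to ES at 11 DIV, 1.79-fold (1.01 to 3.21). The lower end all but touches equality. For these 2 libraries the spread factor was 260, and 381 from genes averaging at least 2000 reads, which would widen the interval. Shares over all genes are not given for such steps.

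Gap43 (ENSMUSG00000047261.9, chromosome 16, 42248442 to 42340651, minus strand) measured 242 CPM in the 11 DIV control against 461 CPM with ES, and 336 CPM in the 19 DIV control against 161 CPM with ES. As for Prph, the stimulated library was the highest at 11 DIV and the lowest at 19 DIV. The ratios were 1.90 (0.700 to 5.75) and 0.479 (0.135 to 1.51), and neither interval excluded equality.

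Uchl1 (ENSMUSG00000029223.12, chromosome 5, 66676091 to 66687234, plus strand) varied least of the 10. Its levels were 475 CPM (control, 11 DIV), 401 CPM (ES, 11 DIV), 489 CPM (control, 19 DIV) and 334 CPM (ES, 19 DIV), a 1.46-fold range from lowest to highest. For comparison, the range was 2.14-fold for Map1b, 3.50-fold for Prph and 5.38-fold for Nefl. The ES to control ratio of Uchl1 was 0.844 at 11 DIV (0.347 to 2.02) and 0.683 at 19 DIV (0.284 to 1.60). The 19 DIV interval also contains the 19 DIV ratios of Prph, Tubb3 and Stmn2, so Uchl1 was not shown to differ from them on that day. Its antisense partner Uchl1os had 0 reads in every library.

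**Figure D2:**
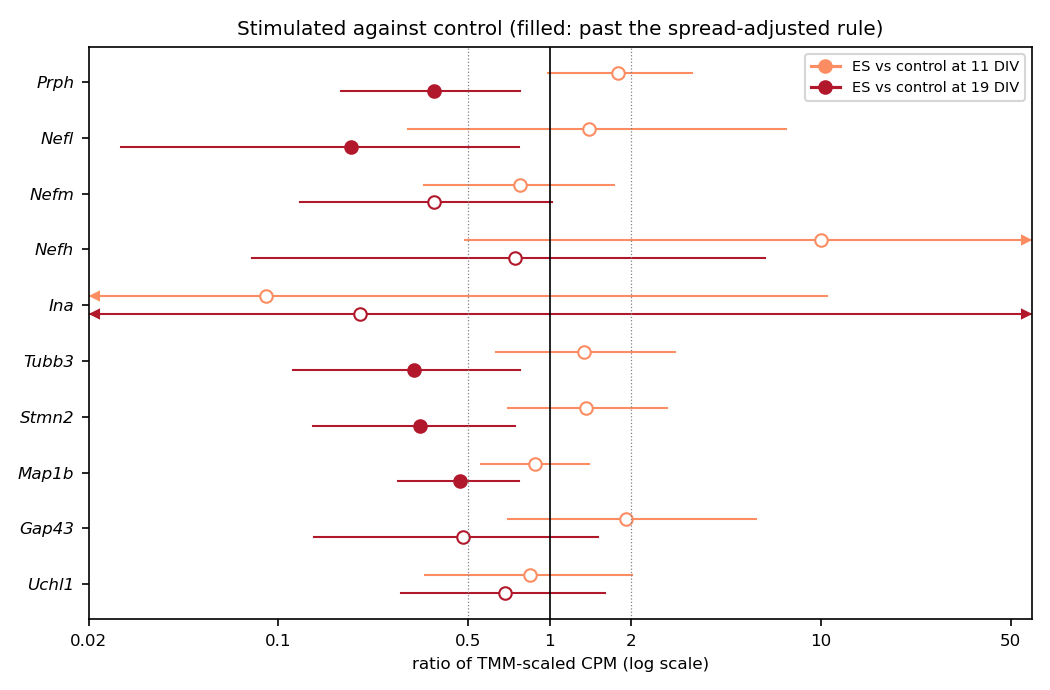
Ratio of CPM in stimulated over control libraries (horizontal log axis) for the 10 genes at 11 and 19 DIV, with 95% spread-adjusted intervals as lines, arrowheads where a line runs past the axis, and filled points for genes past the rule. At 19 DIV all points lie left of 1 and 5 are filled, while at 11 DIV the points lie on both sides and none is filled.

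The counts were read against all genes. All 10 genes were below equality at 19 DIV, 5 passed the rule in the lower direction and 0 in the higher. Of the 10027 genes with at least 50 reads in the higher library, 0.519% passed as lower and 0.389% as higher. Because deeply counted genes pass more easily, the closer background is the 1357 genes averaging at least 1000 reads, where 2.51% passed as lower and 2.36% as higher. Of the 10 genes, 8 have such a mean, the exceptions being Nefh and Ina, and all 5 genes past the rule are among the 8. The median log2 difference was -1.41 over the 10 genes, -0.04 over all genes tested and 0.02 over the 1357. Of all genes tested 51.0% were below equality, and of the 1357 48.6%. By counting error alone 8 of the 10 were lower and 0 higher, beside 31.3% and 29.4% of all genes tested and 8.47% and 10.4% of the 1357.

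At 11 DIV 6 of the 10 genes were above equality in the stimulated library (Prph, Nefl, Nefh, Tubb3, Stmn2 and Gap43) and 4 were below it (Nefm, Ina, Map1b and Uchl1). That is near the background, where 49.2% of genes tested were above equality, and 46.6% of those averaging at least 1000 reads. With 0 of 10 past the rule, the share in all 9834 genes tested was 0.305% higher and 0.508% lower, and among the genes averaging at least 1000 reads 1.92% and 3.1%. The median log2 difference was 0.43 over the 10 and -0.03 over all genes tested. Counting error alone called 1 gene higher (Nefh) and 1 lower (Ina), against 28.9% and 29.6% of genes tested and 9.73% and 11.1% of the 1357.

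The ES comparisons at 11 and 19 DIV share no library, and the ratio at 19 DIV was divided by that at 11 DIV. This quotient contains the 19 DIV ratio, so the results of the 2 do not support each other. No test of it is possible with 1 library per group. The quotient was below equality for 9 of the 10 genes. Its median log2 was -2.02 over the 10, beside 0.13 over the 1357 genes averaging at least 1000 reads. The spread-adjusted interval excluded equality for 6: Prph at 0.210 (0.0878 to 0.504), Nefl at 0.133 (0.0201 to 0.884), Tubb3 at 0.236 (0.0803 to 0.696), Stmn2 at 0.243 (0.0921 to 0.641), Gap43 at 0.252 (0.0638 to 0.993) and Map1b at 0.528 (0.279 to 0.998). The upper ends of Gap43 and Map1b all but touch equality. Among the 1357 genes averaging at least 1000 reads, the interval lay below equality for 3.76% and above it for 4.94%. Nefm, at 0.479 (0.150 to 1.54), and Uchl1, at 0.810 (0.271 to 2.42), included equality. With a spread factor taken from genes averaging at least 2000 reads, 3 of the 6 were left, namely Prph, Stmn2 and Tubb3.

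**Figure D3:**
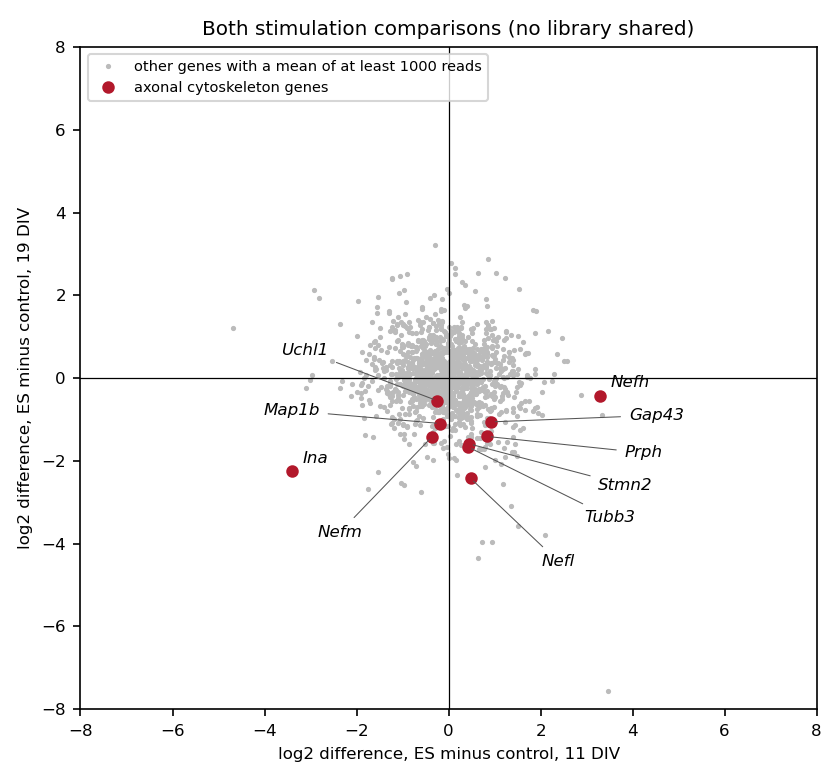
Log2 difference between stimulated and control libraries at 11 DIV (horizontal) and at 19 DIV (vertical) for the 10 axonal cytoskeleton genes and for the other genes averaging at least 1000 reads. The 10 genes all lie below the horizontal line, with Prph, Gap43, Stmn2, Tubb3, Nefl and Nefh to the right of the vertical one.

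Time in culture was compared within each treatment. In control cultures none of the 10 genes passed the rule between 11 and 19 DIV, against 0.469% of 10025 genes higher and 0.758% lower, and 3.17% and 5.01% of the 1357. Counting error alone called Nefh and Nefl higher and Ina lower, beside 30.9% and 29.8% of genes tested and 11.7% and 13.9% of the 1357. The ratio of 19 to 11 DIV was 1.36 for Prph (0.710 to 2.67), 1.33 for Tubb3 (0.624 to 2.97), 1.28 for Stmn2 (0.645 to 2.62), 1.39 for Gap43 (0.457 to 4.63) and 1.06 for Map1b (0.677 to 1.66). Nefl had the largest ratio of the 8 among the 10 averaging at least 1000 reads, 2.91, but its interval ran from 0.808 to 14.7. Nefm was at 0.852 (0.383 to 1.90) and Uchl1 at 1.03 (0.444 to 2.43). The median log2 difference of the 10 genes was 0.39, beside 0.02 over all genes tested.

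In stimulated cultures all 10 genes were lower at 19 than at 11 DIV, and Prph, Tubb3 and Stmn2 passed the rule, 3 of the 9 with at least 50 reads in the higher library (Ina fell short). In the background 0.445% of 9884 genes passed as lower, and 2.51% of those averaging at least 1000 reads, where 2.8% passed as higher. Prph stood at 0.285 (0.125 to 0.601), Stmn2 at 0.311 (0.118 to 0.743) and Tubb3 at 0.315 (0.104 to 0.840) times the 11 DIV level. Map1b, at 0.558 (0.311 to 0.988), was under the 2-fold limit with an interval just short of equality. Gap43 was at 0.349 (0.0937 to 1.11), Nefm at 0.408 (0.119 to 1.25) and Nefl at 0.388 (0.0406 to 2.51). Counting error alone called 6 lower and 0 higher, beside 30.5% and 30.9% of genes tested and 10.3% and 12.2% of the 1357. The median log2 difference was -1.33 over the 10 genes and 0.03 over all genes tested. Of all genes tested 49.4% were below equality, and of the 1357 48.7%. This comparison uses the same ES library at 19 DIV as the comparison with control, so the counts of the 2 comparisons do not support each other. Tubb3 did not pass with a 99% interval or with the spread factor of genes averaging at least 2000 reads.

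**Figure D4:**
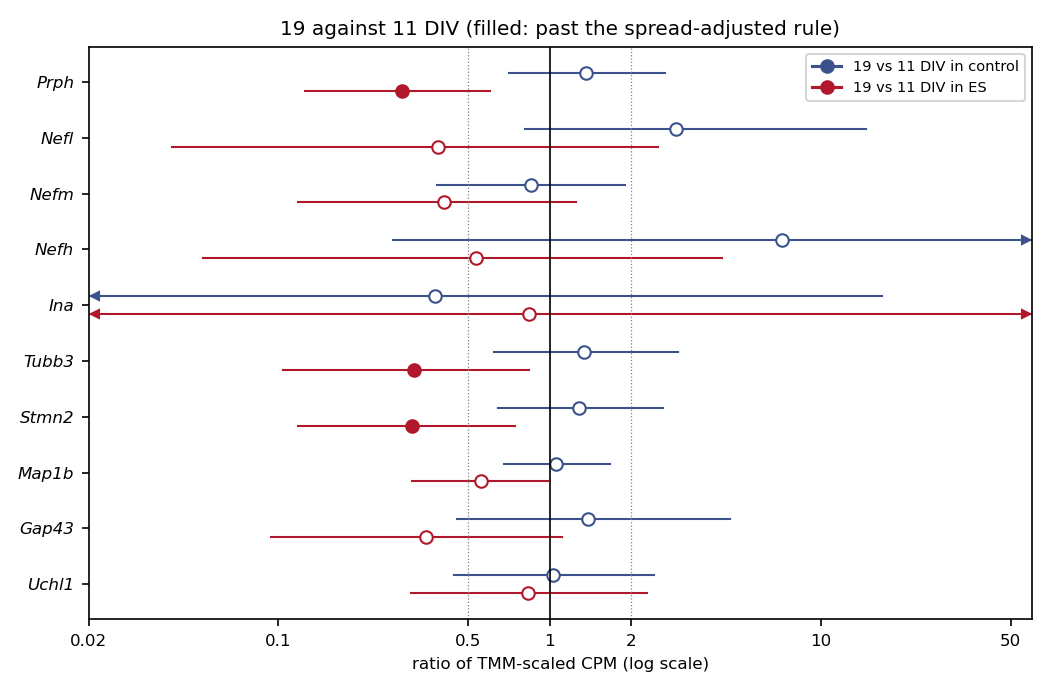
Ratio of CPM at 19 DIV over 11 DIV (horizontal log axis) for the 10 genes in control and in stimulated (ES) cultures, with 95% spread-adjusted intervals, arrowheads where an interval runs past the axis, and filled points for genes past the rule. Control points scatter around 1 with none filled, and all ES points lie left of 1, with Prph, Tubb3 and Stmn2 filled.

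Within a library, the make-up of the 5 intermediate filament genes can be read as shares of their summed reads. The tags come from transcript 3' ends and were not divided by length, so the shares are of reads, to be set between libraries and not between genes. Prph took 46.1% of 8386 reads in control at 11 DIV, 60.5% of 11662 in ES at 11 DIV, 47.6% of 13115 in control at 19 DIV and 50.5% of 5375 in ES at 19 DIV. The spread-adjusted intervals ran from 29.4% to 63.5% in control and from 45.7% to 74.1% in ES at 11 DIV. Nefl took 9.15%, 9.37%, 20.3% and 10.6% in the same order, so its share was largest in control at 19 DIV (10.7% to 33.1%). Nefm took 39.9%, 22.9%, 25.9% and 27.3%. The intervals of the 4 shares overlapped for each of Prph, Nefl and Nefm. As point values, the other 3 Nefl shares lay below the interval of the 19 DIV control. That of ES at 19 DIV did so barely, with an interval of its own of 1.76% to 30.6%. The Nefm share of the 11 DIV control lay above the intervals of ES at 11 DIV (up to 37.0%) and of the 19 DIV control (up to 39.3%). Its own interval ran from 24.0% to 57.6%. These shares were not tested.

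Across all 4 libraries, an additive model of stimulation and day (edgeR quasi-likelihood, 1 residual degree of freedom) called none of the 10 genes for either factor, and none of the 10050 genes tested (0%). At an unadjusted p under 0.05 the edgeR test had 109 genes for stimulation and 202 for day, with 0 of the 10 among either. The fitted log2 ES effect was -0.89 for Nefm, -0.29 for Prph, -0.57 for Stmn2 and -0.62 for Tubb3, each with a Benjamini-Hochberg adjusted edgeR p of 1. It was -2.90 for Ina, -0.97 for Nefl, -0.64 for Map1b, -0.40 for Uchl1 and -0.06 for Gap43. Nefh went the other way, at 1.44. In that model, effects of opposite direction at 11 and 19 DIV cancel. DESeq2 called 2.17% of genes higher and 3.03% lower for stimulation, 4.11% higher and 4.17% lower for day, and none of the 10. Under DESeq2 1 of the 10, Nefm, had an unadjusted p under 0.05, for stimulation (adjusted DESeq2 p 0.159) and for day (0.212). Of the 10050 genes tested, DESeq2 had 1970 under that limit for stimulation and 2302 for day. limma with voom called none of the 10, and none had an unadjusted p under 0.05, against 566 of all genes for stimulation and 701 for day.

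Other markers of neurons were set beside the cytoskeleton. A list of 15 neuronal genes without cytoskeletal function summed to 811 CPM in the 11 DIV control against 1819 CPM with ES, and to 1623 CPM in the 19 DIV control against 999 CPM with ES. The 10 cytoskeletal genes summed to 4809, 5689.9, 5798 and 2394 CPM in the same order. In both lists the stimulated library was above control at 11 DIV and below it at 19 DIV. At 19 DIV 11 of the 14 measured neuronal genes of the list were below control and 0 of 13 tested passed the rule. The median log2 difference was -1.34 there, and 1.91 at 11 DIV, where 1 of 13 tested passed as higher. That gene was Sncg, a synuclein of sensory neurons, at 4.78 times control (1.42 to 23.3). At 19 DIV its ratio was 0.951 (0.339 to 2.71), and that of Elavl4, a neuronal RNA-binding protein, was 1.18 (0.306 to 4.99). The most abundant genes of this list therefore had ratios near or above equality where Prph, Tubb3 and Stmn2 passed as lower, but the intervals were wide: that of Sncg contains the ratio of Prph, and that of Elavl4 the ratios of Prph, Stmn2 and Tubb3. Isl1, Scn9a, Snap25 and Vsnl1 had 0 reads in ES at 19 DIV, and Vsnl1 had 0 reads in every library. Of the 15 listed, 5 had 0 reads in ES at 19 DIV and 4 in control at 11 DIV, against 1 in each other library.

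Markers of the other cells in the explants had none past the rule between ES and control at 19 DIV. The 6 fibroblast markers summed to 9045 CPM in control and 12429 CPM in ES, all 6 above equality. Schwann and satellite glia markers summed to 11869 CPM in control and 9864 CPM in ES at 19 DIV. Of the 9 measured, 1 was above and 8 were below equality there. Of the 11 listed, 2 had 0 reads in control at 19 DIV and 2 others, Cdh19 and S100b, in ES. Cdh19 was also at 0 reads in both libraries at 11 DIV. At 11 DIV the glial sum was 4748 CPM in control and 7702 CPM in ES. Proliferation markers summed to 461 to 626 CPM, macrophage markers to 28.9 to 81.0 CPM and endothelial markers to 25.2 to 48.3 CPM in the 4 libraries. Aif1 of macrophages and Pecam1 and Tek of endothelium had 0 reads in every library. Smooth muscle and pericyte markers summed to 98.5 to 269.7 CPM, with Myh11 at 0 throughout. The part of fibroblast and glial content in the lower cytoskeletal levels was not tested.

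**Figure D5:**
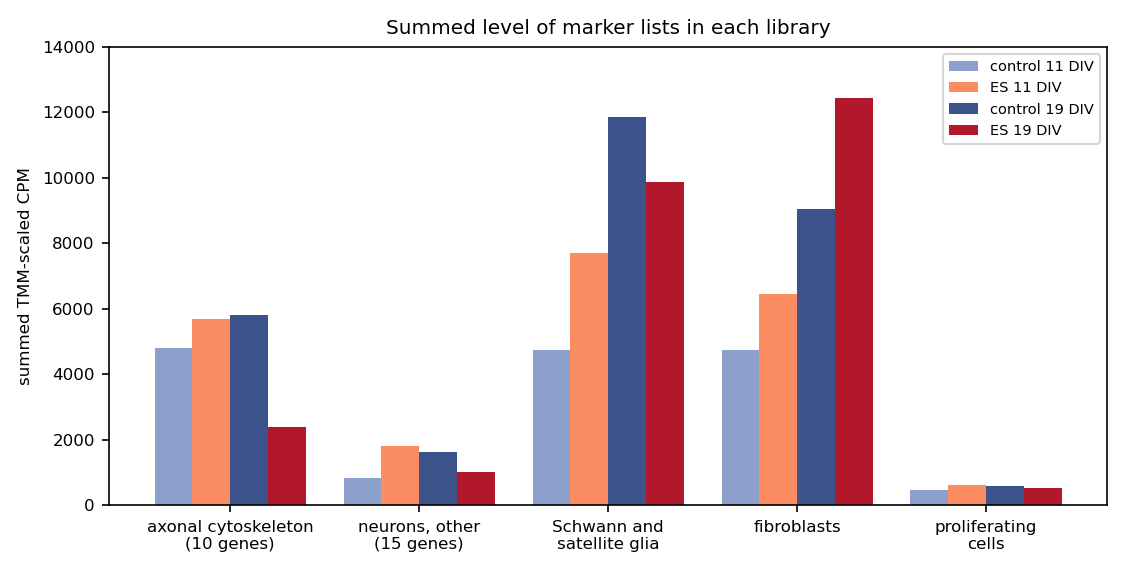
Summed TMM-scaled CPM (vertical axis, from 0) of the 10 axonal cytoskeleton genes, of 15 other neuronal markers and of glial, fibroblast and proliferation markers in each of the 4 libraries. At 19 DIV the neuronal sums are lower in ES than in control (2394 against 5798 CPM for the cytoskeleton) and the fibroblast sum is higher (12429 against 9045 CPM).

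Further proteins that bind microtubules included few genes past the rule. Of 17 microtubule-associated proteins and stathmins outside the 10, 1 of 17 tested passed as higher and 0 as lower in ES at 11 DIV, and 0 as higher and 1 of 16 as lower at 19 DIV. Both calls were Mapt, the axonal protein tau. At 11 DIV it had 4378 reads with ES against 1617 without, 2.65-fold (1.12 to 7.02), and at 19 DIV 1632 with ES against 3807 without, a ratio of 0.370 (0.128 to 0.953). Mapt thus had the direction of Prph and Stmn2 on each day. The broadly expressed Map4 and Mapre1, the most abundant of the list, were at 1.62 (0.719 to 3.89) and 1.69 (0.726 to 4.20) at 19 DIV. The list's median log2 difference was -0.36 at 19 DIV and -1.34 in stimulated cultures between 11 and 19 DIV. In that last comparison 2 of 17 passed as lower, Mapt at 0.277 (0.0915 to 0.726) and the tubulin polymerisation protein Tppp3 at 0.172 (0.0226 to 0.748).

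Growth cone proteins were mixed. Of 15 tested in ES against control at 11 DIV, Rtn1, a reticulon of neurons, passed as higher at 2.59 (1.13 to 6.57) and Fscn1, an actin-bundling protein, as lower at 0.265 (0.0708 to 0.778). At 19 DIV 0 of 15 passed, and the median log2 difference was 0.16 over 16 measured genes. Of those 16, 11 were above equality and 5 below, among the latter Rtn1 (log2 -1.78) and Basp1 (log2 -0.93). Marcks and Cfl1, the most abundant, were at 1.11 (0.779 to 1.58) and 1.12 (0.641 to 1.98) on that day, both widely expressed outside neurons. Between 11 and 19 DIV in stimulated cultures 3 of 16 passed as lower, namely Dpysl3, a collapsin response mediator protein, named after its value was seen, Rtn1 at 0.119 (0.0213 to 0.416) and Basp1, a membrane protein of growth cones, at 0.426 (0.212 to 0.828).

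None of 18 axonal transport motors passed in either ES comparison, and their median log2 differences were 0.19 at 11 DIV and -0.11 at 19 DIV. Dync1i2, an intermediate chain of dynein, was at 1.11 (0.644 to 1.93) and 0.835 (0.496 to 1.40), and Kif3a, a kinesin motor subunit, at 1.20 (0.769 to 1.89) and 0.966 (0.466 to 2.02). Between 11 and 19 DIV Kif3a passed as lower in control, at 0.398 (0.207 to 0.735), and in stimulated cultures, at 0.320 (0.168 to 0.585). Also past the rule as lower were Kif5b in control, at 0.436 (0.191 to 0.941), and Kif5c in stimulated cultures, with 11 reads at 19 DIV and 1281 at 11 DIV. Spectrin and ankyrin genes had none past the rule in either ES comparison among 7 tested. Ank3, which anchors channels at the axon initial segment and nodes, was at 0.780 (0.453 to 1.34) at 19 DIV.

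Among cytoskeletal linkers and intermediate filaments of other cells, Dst (dystonin), a linker needed by sensory axons, was the only 1 of 8 past the rule at 19 DIV, with 1017 reads against 3851 in its control, 0.228 times (0.0589 to 0.685). Vim, the vimentin of glia and fibroblasts, was at 0.995 (0.791 to 1.25) on the same day, while at 11 DIV it had 25177 reads with ES against 16379 without, a ratio under the 2-fold limit (interval 1.12 to 2.02). Nes, the nestin of precursor and glial cells, passed as lower in ES at 11 DIV at 0.306 (0.0969 to 0.812). Among ubiquitin genes and deubiquitinases related to Uchl1, 0 of 9 passed at 11 DIV and 0 of 8 at 19 DIV.

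Genes whose profile over the 4 libraries was most like the mean profile of the 10 were sought among 1349 others averaging at least 1000 reads, by Euclidean distance of centred log2 CPM. With only 4 points per gene this is a description of these libraries. The 8 nearest were Ndrg4, Zc3h11a, Cs, Rps21, Hspa4, Elovl1, Gsk3b and Sod2, at distances of 0.14 to 0.25. The nearest, Ndrg4, had 1349 and 1403 reads at 11 DIV and 2092 and 916 at 19 DIV, control first. The distance of the 10 genes to their own mean ran from 0.35 for Map1b, 0.36 for Tubb3 and 0.38 for Stmn2 through 0.72 for Uchl1 to 2.62 for Nefh and 2.67 for Ina.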

How the data were processed

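The authors deposited 1 table of raw counts for each library, with a row per gene symbol, from QuantSeq libraries (500 ng total RNA, reads at transcript 3' ends), per the labels' protocols. Bowtie2, bedtools and mm10 are named in the submitters' processing notes. Any version, duplicate removal or strand setting is not given in the sources used here. Counts were scaled with TMM (edgeR 4.0.16, R 4.3.3) over the 4 libraries. Ratios, exact Clopper-Pearson 95% intervals and the spread factor were computed in Python 3.11.15 with scipy 1.17.1. Spread-adjusted intervals stand in for replicate error. The spread factor was taken from the libraries being compared, so it may also contain real differences between them. Both kinds of interval compare libraries, and without replicates neither measures biological variation. The ratio of 2 ratios used a normal interval on the log scale. Log2 differences used a prior count of 2, and lists used genes averaging at least 10 reads. The additive model used edgeR with filterByExpr and a Benjamini-Hochberg threshold of 0.05, and DESeq2 1.42.0 and limma 3.58.1 as alternatives. The ratio and model code was tested on simulated data. Positions are from GENCODE M21 (GRCm38, the assembly of mm10).

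The genes, lists and tests were chosen with earlier results of these data known, and the background of genes averaging at least 1000 reads was added after seeing the data. Named genes were the 10 in every comparison and, per list, the 2 most abundant genes and up to 2 past the rule with the largest fold, of which those bearing on the 10 are given, with the 8 genes nearest in profile and Rn45s. Some genes of the lists are not reported here.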

Additional observations from a re-analysis of the deposited data

Results flagged for a closer look

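For 6 of the 10 genes the stimulated library was above control at 11 DIV and below it at 19 DIV, and the difference between the days was not tested, since each group had 1 library. The ratio at 19 DIV divided by the ratio at 11 DIV was 0.210 for Prph, 0.133 for Nefl, 0.0742 for Nefh, 0.236 for Tubb3, 0.243 for Stmn2 and 0.252 for Gap43. The value for Nefh rests on 79 reads in control at 11 DIV, and its interval of 0.00175 to 3.16 included equality. Among 1357 genes averaging at least 1000 reads, 23.9% were likewise above control at 11 DIV and below it at 19 DIV.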

How the results depend on the processing

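Without the spread factor, counting error alone called 1 gene higher and 1 lower in ES at 11 DIV, 8 lower in ES at 19 DIV, 2 higher and 1 lower at 19 DIV in control, and 6 lower at 19 DIV in ES. For the difference of the ES effect between days, the spread factor of genes averaging at least 2000 reads left 3 genes in place of 6, and upper quartile scaling 4, without Gap43 and Map1b. The other counts stayed within 1.5 times under total-count, RLE and upper quartile scaling, TMM without Rn45s, 99% intervals, fold minimums of 1.5 or none, and read minimums of 10 or 500. The additive model called 0 of the 10 under each alternative run. Total counts in place of TMM moved every log2 difference by 0.13 in the ES comparison at 11 DIV and in the day comparison of controls. Of 160 single ratios under 4 scalings, 144 stayed within their counting interval, and no ratio past the rule changed side. The ratio of Uchl1 between days in control, 1.03, was 0.999 under upper quartile scaling. No paired analysis was possible because each group had 1 library, and leaving out a library left the additive model with no residual degree of freedom.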
